A study of Rattus norvegicus with 16 samples.

Results

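Glutamate and GABA (gamma-aminobutyric acid) are the main excitatory and inhibitory transmitters of the brain, and a neuron's choice between them is set by a few genes. The 5 such genes described here were taken by their listed Ensembl gene IDs from a table of 32754 IDs: Slc17a7 (ENSRNOG00000020650), Slc17a6 (ENSRNOG00000016147), Slc32a1 (ENSRNOG00000015393), Gad1 (ENSRNOG00000000007) and Gad2 (ENSRNOG00000018200). All 5 were present in the table, and all 5 passed the filter on low counts, as did 15035 of the 32754 IDs. The genes were measured in bulk hippocampus of male Fischer-344 rats, an inbred strain used in aging research, with WT genotype in every group. The 4 groups were old trained rats (20 months of age, exercise training), young trained rats (6 months, exercise training), old sedentary rats (20 months, no training) and young sedentary rats (6 months, no training), with 4 libraries each. Each regime lasted 10 weeks, all groups went through behavioral tests, and the hippocampus was removed 2 days later.

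Vesicular transporters load transmitter into synaptic vesicles. Slc17a7 (also named Vglut1) and Slc17a6 (Vglut2) load glutamate. In the rodent brain Slc17a7 is the main form of cortical and hippocampal principal neurons, and Slc17a6 is the main form of thalamus, hypothalamus and brainstem and is low in hippocampal principal neurons. Gad1 and Gad2 encode glutamate decarboxylases, which make GABA from glutamate, and Slc32a1 (Vgat) encodes the transporter that loads GABA into vesicles. In the hippocampus these GABA genes mark interneurons. In bulk tissue, fewer cells of a type and less RNA per cell cannot be told apart.

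The RefSeq promoters of the 5 genes (assembly GRCr8, plus strand in each case) were matched by symbol. Slc17a7 and Slc17a6, which load the same transmitter, differed between trained and sedentary rats in opposite directions. Slc32a1 was lower in trained old rats, as Slc17a6, Gad1 and Gad2 were. The sequences of Slc17a7, Slc17a6 and Slc32a1 are shown. Each is written 5′ to 3′ and ends at the base before the annotated gene start. The capitals mark the GC box GGGCGG, the cyclic AMP response half-site TGACG and the TATA box TATAAA, searched on both strands.
Slc17a7, chr1:104785955-104786171: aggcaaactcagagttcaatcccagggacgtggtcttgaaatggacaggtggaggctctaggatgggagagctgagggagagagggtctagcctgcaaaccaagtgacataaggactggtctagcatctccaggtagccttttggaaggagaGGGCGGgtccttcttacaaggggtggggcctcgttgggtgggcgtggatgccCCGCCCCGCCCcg
Slc17a6, chr1:110348197-110348446: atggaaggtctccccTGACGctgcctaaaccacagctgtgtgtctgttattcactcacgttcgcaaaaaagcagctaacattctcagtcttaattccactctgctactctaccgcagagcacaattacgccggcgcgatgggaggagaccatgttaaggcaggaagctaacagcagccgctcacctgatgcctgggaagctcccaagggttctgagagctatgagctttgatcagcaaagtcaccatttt
Slc32a1, chr3:167686995-167687244: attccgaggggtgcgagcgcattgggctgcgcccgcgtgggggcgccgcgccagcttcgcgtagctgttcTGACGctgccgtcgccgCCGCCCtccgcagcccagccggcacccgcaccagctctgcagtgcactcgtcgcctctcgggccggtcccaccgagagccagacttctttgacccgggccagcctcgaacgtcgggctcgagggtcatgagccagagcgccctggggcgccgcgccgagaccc

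In the 250 bases before the promoter table's start site, the Slc17a7 promoter held 3 matches to the GC box, a pair of which share a base, while the Slc17a6 promoter held 0. The Slc32a1 and Gad1 promoters held 1 match each, and the Gad2 promoter held 0. Of 33465 rat promoters of the same length, 30.5% held at least 1 GC box. The half-site TGACG occurred once in the promoters of Slc17a6 and Slc32a1 and in 18.2% of all promoters. The promoters of Slc17a7, Gad1 and Gad2 held 0 matches to it. The TATA box was found in 1 of the 5 genes, Gad1, and in 12.9% of all promoters. The E-box CANNTG, which is not capitalised, had 2 matches each in Slc17a7 and Slc17a6, and 65.5% of all promoters held it. G and C made up 61.2% of the Slc17a7 window, 50.8% of the Slc17a6 window and 73.6% of the Slc32a1 window, against a median of 51.2% over all promoters. These matches describe the sequence only.

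Library totals ran from 8630396 to 14576687 counts. On the first principal component of all tested genes the 8 trained libraries lay between -39.8 and -18.9. Old sedentary libraries 1, 2 and 4 lay between 49.7 and 55.9 and old sedentary library 3 at 12.7. Young sedentary libraries 2 and 4 lay at 29.3 and 25.7, and young sedentary libraries 1 and 3 at 0.69 and 1.34. The sedentary libraries were thus spread widely within each age, and fold changes that rest on the outlying ones are given with and without them. Ratios and correlations were not recomputed without old sedentary libraries 1, 2 and 4 or without young sedentary libraries 2 and 4. The labels' protocols speak of 5 libraries per condition and 10 per flow cell lane. Which library ran in which lane is not stated, so a lane difference cannot be told apart from a group difference. The count table pairs no ID with a symbol beyond the 5 listed, so markers of other cell types or brain regions were not tested.

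Across the whole set, trained rats had more Slc17a7 and less Slc17a6, Slc32a1 and Gad2 mRNA than sedentary rats when both ages were averaged. Of the 5 genes, 4 passed the test (edgeR's quasi-likelihood test, Benjamini-Hochberg adjusted p below 0.05 over all 15035 genes), 1 higher and 3 lower. Of all genes, 33.9% were called in this comparison, 15.9% higher and 18% lower. In old rats all 5 genes passed, 1 higher and 4 lower, where 24.1% of all genes did (11.5% higher and 12.6% lower). In young rats 1 of the 5 passed, where 17.1% of all genes did. The median size of the log2 fold change over the 5 genes was 0.74 in old and 0.20 in young rats, and over all genes it was 0.19 at both ages.

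**Figure D1:**
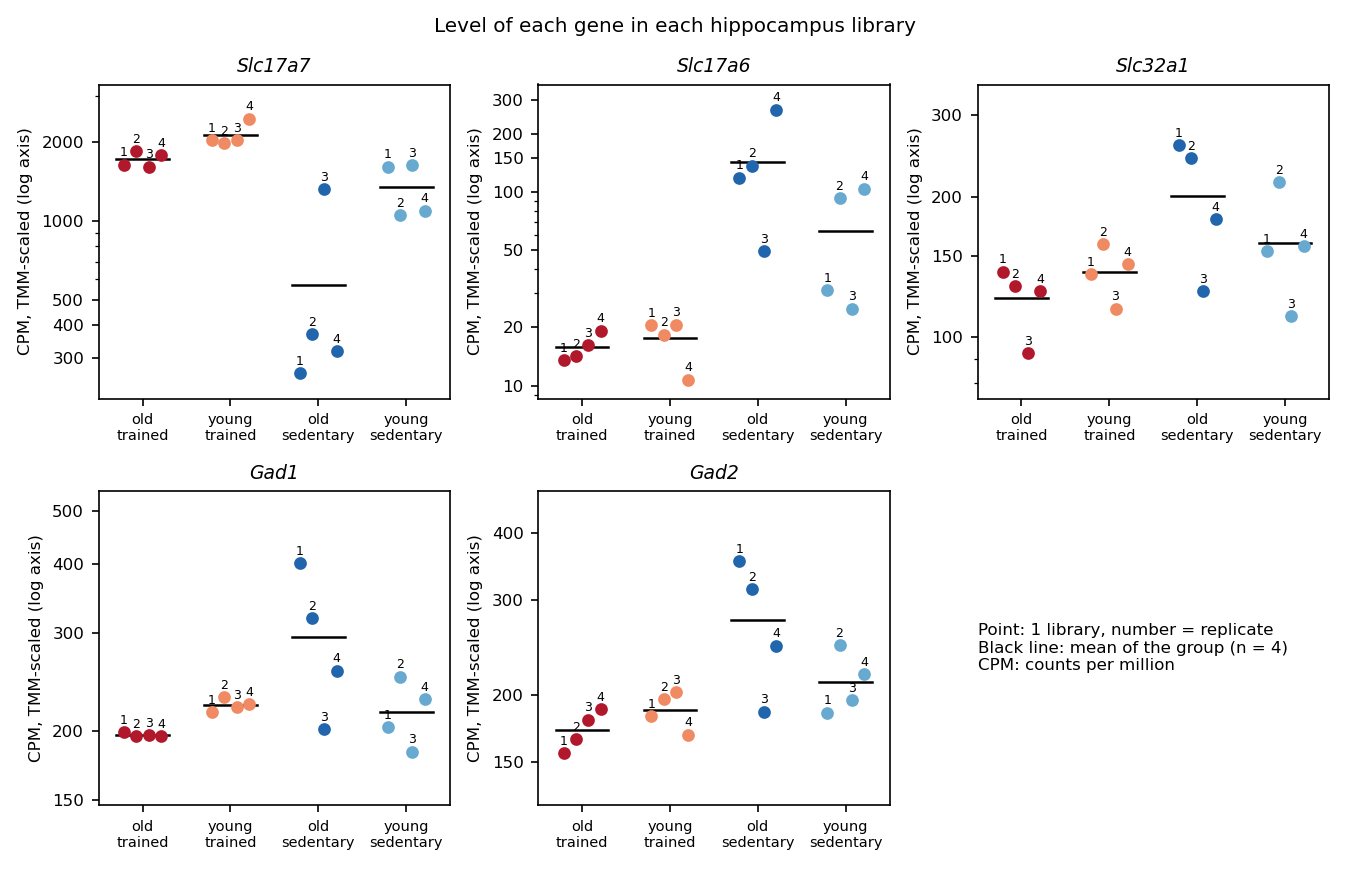
Level of each of the 5 genes in each of the 16 libraries, in counts scaled to library size (CPM) with TMM factors on a log axis, with groups along the horizontal axis, 1 point per library, replicate numbers beside the points and a black line at each group mean (n = 4). Old sedentary libraries 1, 2 and 4 are lowest for Slc17a7, between 263 and 371 CPM, and all 8 trained libraries are at or below 20.6 CPM for Slc17a6.

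Slc17a7 was the gene of the set with higher levels after training. Levels are given as CPM, which corrects for library size, further scaled by TMM factors. In old trained rats the 4 libraries stood at 1639.65, 1844, 1607 and 1781 CPM, against 263, 371, 1324 and 318 CPM in old sedentary libraries 1 to 4. Every old trained library was thus above every old sedentary library, and old sedentary library 3 lay far from the other 3. The means were 1718 ± 113 CPM in old trained and 569 ± 505 CPM in old sedentary rats (SD, n = 4 each). The log2 fold change was 1.59 (SE 0.40, edgeR adjusted p = 0.0108), or 3.02-fold. Without old sedentary library 3 it was 2.44 (edgeR adjusted p = 3.26e-07).

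In young rats Slc17a7 stood at 2027, 1973, 2027 and 2451 CPM in trained libraries, against 1608, 1049, 1631 and 1093 CPM in sedentary libraries. The groups did not overlap, as was true of 25.2% of all genes in this comparison and of 21.1% in old rats. The means were 2119.6 ± 222 CPM in young trained and 1345 ± 318 CPM in young sedentary rats (SD, n = 4 each). The log2 fold change was 0.66, with a 95% interval of -0.18 to 1.49 (edgeR adjusted p = 0.256), and did not pass the test, in which the spread is estimated over all 16 libraries. In a fit to the 8 young libraries alone it was 0.64 (edgeR adjusted p = 0.0211). Without old sedentary library 3 it was 0.66 (edgeR adjusted p = 0.00576), and without young sedentary libraries 2 and 4, left out after their values were known, 0.40 (edgeR adjusted p = 0.653).

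Slc17a6 showed the largest change of the 5 genes, in the opposite direction. It stood at 13.5, 14.2, 16.3 and 19.3 CPM in old trained libraries, against 119, 137, 49.7 and 267 CPM in old sedentary libraries. The ranges of the groups did not overlap, as was true of 21.1% of all genes, and the sedentary libraries alone spanned 5.36-fold. Means were 15.8 ± 2.575 CPM in old trained and 143 ± 90.5 CPM in old sedentary rats (SD, n = 4 each). The log2 fold change was -3.17 (SE 0.53, edgeR adjusted p = 0.00142), or 8.99-fold lower in trained rats. Of all genes tested, 0.539% had a change at least as large in this comparison.

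In young rats Slc17a6 stood at 20.5, 18.4, 20.6 and 10.7 CPM in trained libraries, against 31.2, 93.0, 25.0 and 104 CPM in sedentary libraries. All young trained libraries were below all young sedentary ones, in a comparison where 25.2% of all genes did not overlap. Young sedentary libraries 2 and 4 stood well above the other young sedentary libraries. The means were 17.6 ± 4.68 CPM in young trained and 63.3 ± 41.1 CPM in young sedentary rats (SD, n = 4 each). The log2 fold change was -1.86 (SE 0.51, edgeR adjusted p = 0.0245). The Slc17a6 call was lost without young trained library 2 (-1.86, edgeR adjusted p = 0.0547) or 4 (-1.66, edgeR adjusted p = 0.0904), and without young sedentary library 2 (-1.59, edgeR adjusted p = 0.0675) or 4 (-1.52, edgeR adjusted p = 0.0835). The direction was the same in each of these fits. Without both young sedentary libraries 2 and 4 the log2 fold change was -0.67 (edgeR adjusted p = 0.431).

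With both ages together, Slc17a6 was lower in each of the 8 trained libraries (10.7 to 20.6 CPM) than in each of the 8 sedentary libraries (25.0 to 267 CPM). It was the gene of the 5 with no overlap in this pooled comparison, where 4.51% of all genes did not overlap. Its log2 fold change averaged over age was -2.51 (SE 0.37, edgeR adjusted p = 0.000181), and that of Slc17a7 was 1.12 (SE 0.28, edgeR adjusted p = 0.0064). Without old sedentary libraries 1, 2 and 4, likewise left out after their values were known, the values were -1.75 (edgeR adjusted p = 0.0155) for Slc17a6 and 0.51 (edgeR adjusted p = 0.0249) for Slc17a7. In old rats that setting left 1 sedentary library, assumed to vary like the other groups, with log2 fold changes of -1.64 (edgeR adjusted p = 0.516) for Slc17a6 and 0.38 (edgeR adjusted p = 0.721) for Slc17a7. Slc17a6 had the fewest counts of the set, and its lowest library held 113 counts (exact Poisson 95% interval 93.1 to 136, for counting error only).

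**Figure D2:**
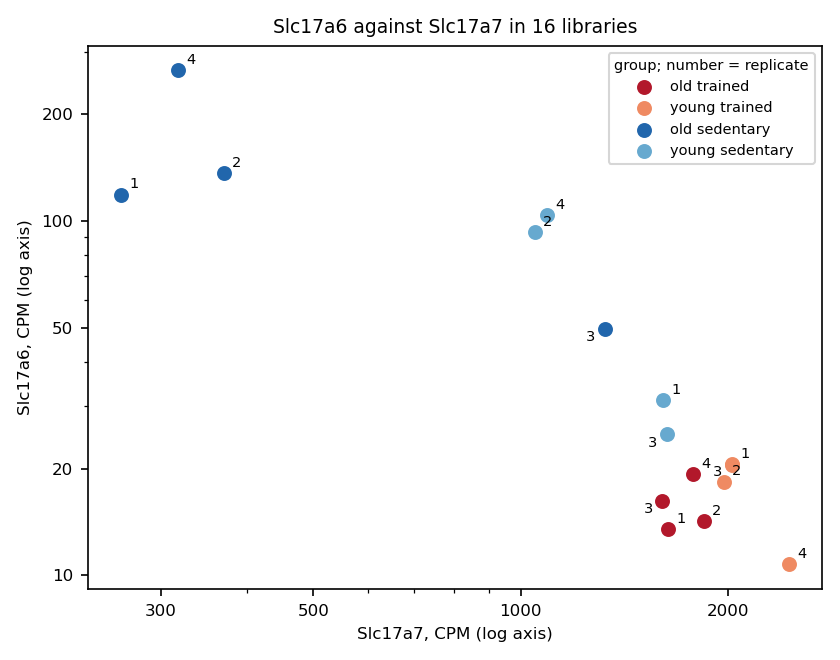
Slc17a6 against Slc17a7 in the 16 libraries, both in CPM on log axes, 1 point per library with its replicate number. Trained libraries lie at the lower right (Slc17a7 1607 to 2451 CPM, Slc17a6 10.7 to 20.6 CPM) and old sedentary libraries 1, 2 and 4 at the upper left, with the other 5 sedentary libraries between them.

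The vesicular glutamate transporters were also set against each other within each library, which removes library scaling. The 2 transcripts differ in length, so the ratio of their CPM is read only between libraries. Slc17a6 per Slc17a7 was 0.00824, 0.00771, 0.0101 and 0.0108 in old trained libraries, against 0.451, 0.369, 0.0375 and 0.838 in old sedentary libraries. In young rats it was 0.0101, 0.00931, 0.0102 and 0.00438 in trained libraries, against 0.0194, 0.0887, 0.0153 and 0.0953 in sedentary libraries. No trained library reached the lowest sedentary library of its age. This follows from the 2 genes taken singly, which each separated the groups at both ages, in opposite directions. The mean log2 ratio was -6.77 in old trained and -1.89 in old sedentary rats, a difference of -4.88. It was -6.96 in young trained and -4.65 in young sedentary rats, a difference of -2.31. These ratios are a description, with no test.

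The libraries with the highest Slc17a6 (old sedentary 1, 2 and 4, then young sedentary 4 and 2) were the libraries with the lowest Slc17a7 and the most positive positions on the first principal component. Slc17a6 is abundant in the thalamus, which adjoins the hippocampus, and the part of differences in the tissue taken was not tested.

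Over 13386 genes whose mean log2 CPM reached 1, the pattern most like that of Slc17a7 over the 16 libraries was that of ENSRNOG00000006204 (Pearson r = 0.99 of log2 CPM, given as a description without a p). It averaged 222 ± 24.9 CPM in old trained and 64.5 ± 61.3 CPM in old sedentary rats (SD, n = 4 each). In all, 430 of these genes had r above 0.9 with Slc17a7 and 52 had r below -0.9. The pattern most like that of Slc17a6 was that of ENSRNOG00000002336 (r = 0.99), with 87.5 ± 7.05 CPM in old trained and 165 ± 35.4 CPM in old sedentary rats (SD, n = 4 each). For Slc17a6, 154 genes had r above 0.9 and 200 had r below -0.9. The 16 libraries are the same for every gene, and the differences between groups enter these values.

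The GABA genes were lower in trained than in sedentary old rats, by smaller factors than Slc17a6. Gad1 stood at 199, 195, 196 and 195 CPM in old trained libraries, against 402, 320.04, 201 and 257 CPM in old sedentary libraries. The groups did not overlap, as was true of 21.1% of all genes in this comparison. Old sedentary library 3, at 200.9 CPM, lay just above the highest old trained library, at 198.8 CPM. Counting alone gives a spread of 2.45% in that old trained library, at 1663 counts, which is more than this gap. The means were 196 ± 1.69 CPM in old trained and 295 ± 86.5 CPM in old sedentary rats (SD, n = 4 each). The log2 fold change was -0.59 (SE 0.15, edgeR adjusted p = 0.0108). The spread among old trained rats was 0.858% of the mean, below the 2.07% that counting alone would give, while among old sedentary rats it was 29.3%.

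Gad1 did not pass in young rats, with 216, 230.2, 220.4 and 223 CPM in trained libraries, against 203, 251, 183 and 228 CPM in sedentary libraries. The trained libraries lay inside the range of the sedentary ones. The log2 fold change was 0.04 with a 95% interval of -0.28 to 0.36 (edgeR adjusted p = 0.874). Averaged over age it was -0.27 (SE 0.11, edgeR adjusted p = 0.0583). limma voom (-0.27, adjusted p = 0.0208) and the DESeq2 Wald test (-0.27, adjusted p = 0.0482) called Gad1 in this comparison. In edgeR it passed without old sedentary library 3 (-0.35, edgeR adjusted p = 0.00329) and without old sedentary library 4 (-0.30, edgeR adjusted p = 0.0464).

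Gad2, the other decarboxylase, stood at 156, 166, 179.8 and 188 CPM in old trained libraries, against 355, 315, 186 and 247 CPM in old sedentary libraries. Old trained library 4 was just above old sedentary library 3, so the groups overlapped. The means were 172 ± 14.3 CPM in old trained and 276 ± 74.7 CPM in old sedentary rats (SD, n = 4 each), and Gad2 changed by -0.68 on the log2 scale (SE 0.15, edgeR adjusted p = 0.00534). In young rats Gad2 averaged 187 ± 15.0 CPM in trained and 212 ± 27.8 CPM in sedentary libraries (SD, n = 4 each). There the log2 fold change was -0.18 with a 95% interval of -0.50 to 0.15 (edgeR adjusted p = 0.435).

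Slc32a1, which loads GABA into vesicles, stood at 138, 129, 92.4 and 126 CPM in old trained libraries, against 259, 243, 126 and 179.7 CPM in old sedentary libraries. Old sedentary library 3 was again inside the old trained range. The means were 121 ± 20.0 CPM in old trained and 202 ± 61.1 CPM in old sedentary rats (SD, n = 4 each), and Slc32a1 changed by -0.74 on the log2 scale (SE 0.22, edgeR adjusted p = 0.0255). In young rats Slc32a1 averaged 139 ± 18.1 CPM in trained and 159 ± 43.0 CPM in sedentary libraries (SD, n = 4 each), with a log2 fold change of -0.20 (95% interval -0.67 to 0.27, edgeR adjusted p = 0.545). The Slc32a1 call in old rats was lost without old trained library 2, 3 or 4 (-0.76, -0.62 and -0.75) and without old sedentary library 1 or 2 (-0.59 and -0.63), with edgeR adjusted p from 0.0521 to 0.0858. In a fit to the 8 old libraries alone it was not called (edgeR adjusted p = 0.0543), nor was Slc17a7 (edgeR adjusted p = 0.0679), while Gad1, at an edgeR adjusted p of 0.0499, Gad2 and Slc17a6 were.

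Averaged over age, the training values of the GABA genes were -0.43 for Gad2 (SE 0.11, edgeR adjusted p = 0.006) and -0.47 for Slc32a1 (SE 0.16, edgeR adjusted p = 0.0303). With each library left out in turn, Gad2 was called in 16 of 16 fits and Slc32a1 in 7 of 16 (log2 fold change from -0.55 to -0.36, edgeR adjusted p up to 0.0796). Without a filter on low counts Slc32a1 was not called (-0.47, edgeR adjusted p = 0.0653). Neither Gad2 nor Slc32a1 was called without old sedentary libraries 1, 2 and 4 (-0.15 and -0.13, edgeR adjusted p = 0.312 and 0.663), nor without young sedentary libraries 2 and 4 (-0.34 and -0.32, edgeR adjusted p = 0.0535 and 0.176). In old rats, without old sedentary libraries 1, 2 and 4, the log2 fold changes were -0.03 for Gad1, -0.11 for Gad2 and -0.05 for Slc32a1, and 0 of the 5 genes was called (edgeR, lowest adjusted p = 0.516). That edgeR fit called 0 of all genes in old rats. Both library sets were chosen after the data were seen.

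**Figure D3:**
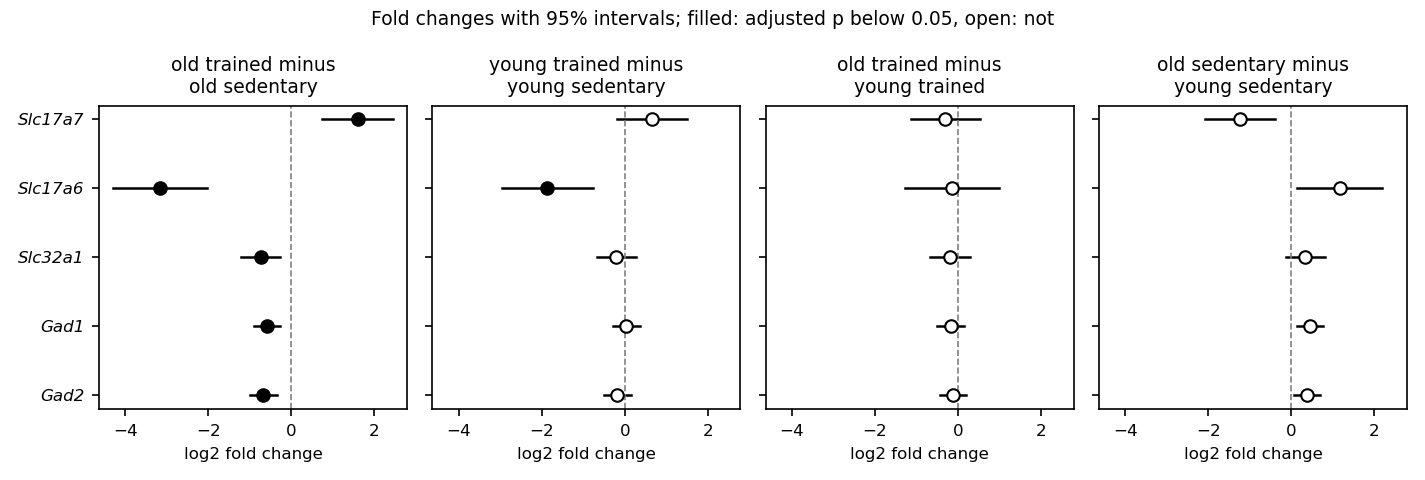
Log2 fold changes of the 5 genes with 95% intervals from the fit over all 16 libraries, for training in old and young rats and for age in trained and sedentary rats; filled points passed at adjusted p below 0.05. All 5 points are filled for training in old rats, from -3.17 for Slc17a6 to 1.59 for Slc17a7, 1 is filled for training in young rats, and 0 are filled for age.

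Within each age, ratios among the GABA genes overlapped between trained and sedentary libraries, and the ratio of Slc17a7 to summed Gad1 and Gad2 did not. Gad1 per Gad2 averaged 1.15 ± 0.104 in old trained and 1.07 ± 0.0507 in old sedentary libraries, and 1.19 ± 0.0960 in young trained and 1.02 ± 0.0661 in young sedentary libraries (SD, n = 4 each). Slc32a1 per summed Gad1 and Gad2 averaged 0.330 ± 0.0619 in old trained and 0.352 ± 0.0242 in old sedentary libraries, and 0.339 ± 0.0456 in young trained and 0.368 ± 0.0600 in young sedentary libraries (SD, n = 4 each). Slc17a7 per summed Gad1 and Gad2 was 4.62, 5.11, 4.27 and 4.65 in old trained libraries, against 0.347, 0.584, 3.42 and 0.632 in old sedentary libraries. In young rats it was 5.09, 4.62, 4.80 and 6.26 in trained libraries, against 4.14, 2.1045, 4.31 and 2.45 in sedentary libraries. It was higher in each trained library than in each sedentary library of its age, by a mean of 2.52 log2 units in old and 0.74 log2 units in young rats. Slc17a7 taken singly already separated the groups in this direction at both ages, so the ratio is not a separate result.

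**Figure D4:**
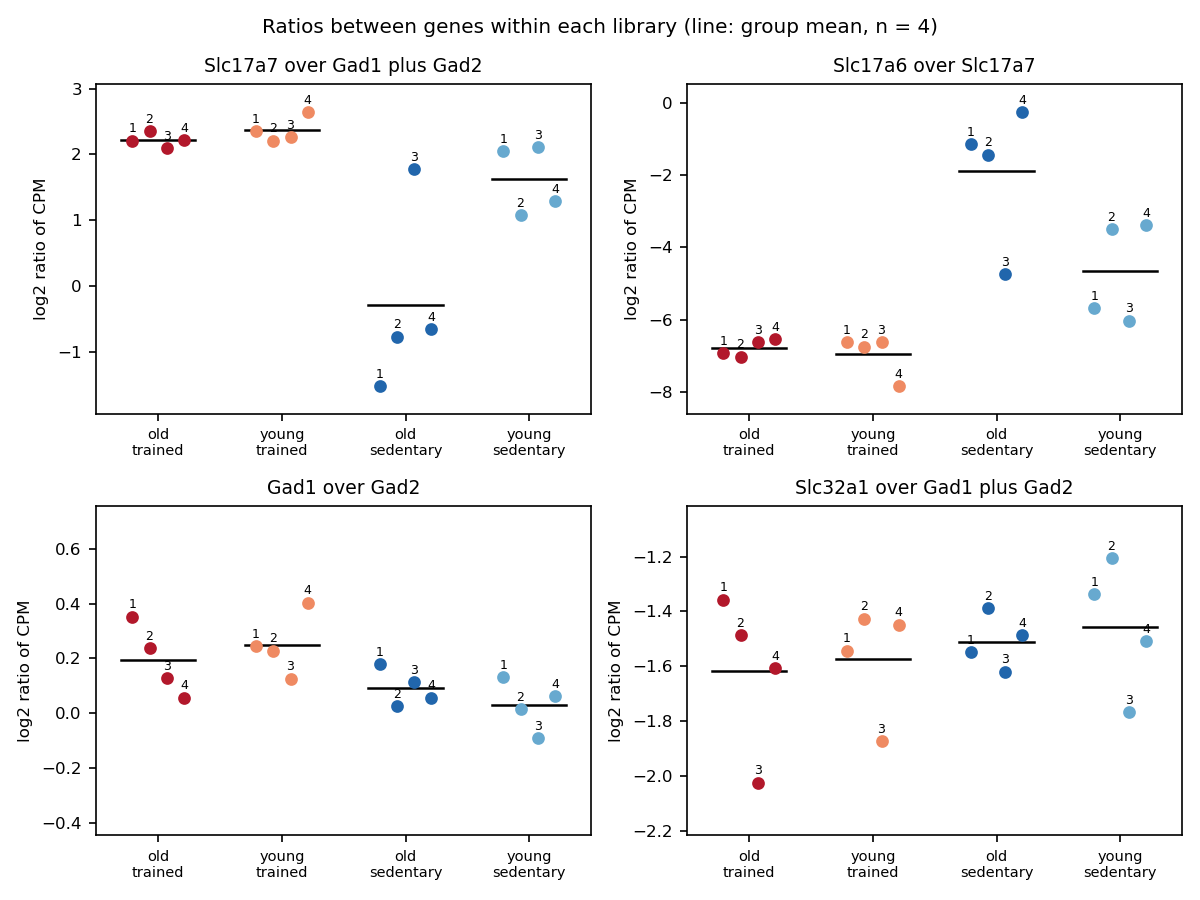
Log2 ratios of CPM between genes within each library, by group, with 1 point per library, replicate numbers and a line at the group mean (n = 4). Slc17a7 over Gad1 plus Gad2 and Slc17a6 over Slc17a7 separate the trained from the sedentary libraries of each age, whereas Gad1 over Gad2 and Slc32a1 over Gad1 plus Gad2 overlap. For Slc17a6 over Slc17a7 this follows from the separation of each gene taken singly. For Slc17a7 over Gad1 plus Gad2, Slc17a7 taken singly already separated the groups at both ages.

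How the genes varied together was examined within the 8 sedentary and within the 8 trained libraries, over 10 pairs in each, a family of 20 adjusted together. Among sedentary libraries Gad1 and Gad2 had Pearson r = 0.98 (exact permutation adjusted p = 0.00496) and Spearman rho = 0.88 (exact permutation adjusted p = 0.0241). Slc32a1 and Gad1 had r = 0.93 (exact permutation adjusted p = 0.00496) and rho = 0.98 (exact permutation adjusted p = 0.00794). Slc32a1 and Gad2 had r = 0.91 (exact permutation adjusted p = 0.00883) and rho = 0.90 (exact permutation adjusted p = 0.0183). Without the 2 libraries farthest from the median, r was 0.91, 0.91 and 0.92 for these pairs. Slc17a6 and Gad1 among sedentary libraries had r = 0.67 (exact permutation adjusted p = 0.112) and rho = 0.86 (exact permutation adjusted p = 0.0268). Their r was 0.41 without the 2 farthest libraries. Among trained libraries Slc17a6 and Gad2 had r = 0.79 (exact permutation adjusted p = 0.0566) and rho = 0.83 (exact permutation adjusted p = 0.0342). Slc32a1 and Gad2 did not rise and fall together among trained libraries, unlike among sedentary ones. Their r there was -0.12 (exact permutation adjusted p = 0.805) and rho -0.19 (exact permutation adjusted p = 0.738). Both ages were pooled in these tests, without a block for age. For Slc17a7, 3 of the 8 sedentary libraries formed a separate cluster, and among trained libraries the ages did not overlap for Slc17a7 or Gad1. Pairs with Slc17a7, and pairs with Gad1 among trained libraries, are therefore not reported as relations.

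Age was compared within each training state. In sedentary rats Slc17a7 averaged 569 ± 505 CPM in old and 1345 ± 318 CPM in young libraries, and Slc17a6 143 ± 90.5 CPM in old and 63.3 ± 41.1 CPM in young libraries (SD, n = 4 each). Old sedentary library 3 lay inside the young sedentary range of both genes, and none of the 5 genes separated the ages in sedentary rats, where 7.93% of all genes did. The log2 fold changes were -1.24 for Slc17a7 (SE 0.40, edgeR adjusted p = 0.104) and 1.17 for Slc17a6 (SE 0.48, edgeR adjusted p = 0.188). The values for Gad1, Gad2 and Slc32a1 were 0.45, 0.38 and 0.34 (edgeR adjusted p = 0.113, 0.175 and 0.425). None of the 5 genes passed in edgeR, where 1.51% of all genes did. At an unadjusted p below 0.05, 4 of the 5 did, against 19.9% of all genes. limma voom called 1 of the 5, Slc17a7 (-1.54, adjusted p = 0.0163), and the DESeq2 Wald test called 0.

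The age result in sedentary rats turned on old sedentary library 3. Without it the edgeR test called 4 of the 5 genes: Slc17a7 at -2.08 (edgeR adjusted p = 3.92e-06), Slc17a6 at 1.45 (edgeR adjusted p = 0.0439), Gad1 at 0.59 (edgeR adjusted p = 0.0038) and Gad2 at 0.53 (edgeR adjusted p = 0.00782). Over the fits with 1 library left out, this comparison called 38 to 2007 of all genes, against 227 with all libraries. Without old sedentary libraries 1, 2 and 4, which leaves library 3 as the group's 1 member, Slc17a7 was at -0.03 and Slc17a6 at -0.36 (edgeR adjusted p of 1 for both). Without young sedentary libraries 2 and 4, Slc17a6 was at 2.34 (edgeR adjusted p = 0.0408).

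In trained rats 0 of the 5 genes passed for age in edgeR, where 4.98% of all genes did. At an unadjusted p below 0.05, 0 of the 5 passed, against 22.7% of all genes, and limma voom and the DESeq2 Wald test called 0. Slc17a7 was nonetheless lower in every old trained library (1607 to 1844 CPM) than in every young trained library (1973 to 2451 CPM), and Gad1 likewise (195 to 199 CPM against 216 to 230.2 CPM). Of all genes, 17.0% did not overlap in this comparison. The log2 fold changes were -0.30 for Slc17a7 (95% interval -1.14 to 0.53, edgeR adjusted p = 0.685) and -0.18 for Gad1 (95% interval -0.50 to 0.14, edgeR adjusted p = 0.509). In a fit to the 8 trained libraries alone Slc17a7 was called at -0.32 (edgeR adjusted p = 0.0485), and Gad1, at -0.19, was not (edgeR adjusted p = 0.0581). Slc17a6, Slc32a1 and Gad2 overlapped between the ages, with values of -0.14, -0.19 and -0.12. Their 95% intervals were -1.27 to 0.99, -0.66 to 0.28 and -0.44 to 0.20.

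Averaged over training, 0 of the 5 genes passed for age in edgeR, where 10.5% of all genes did. At an unadjusted p below 0.05 1 of the 5 did, against 26.1% of all genes, and the DESeq2 Wald test called 0. That gene was Slc17a7, at -0.77 (SE 0.28, edgeR adjusted p = 0.091), which limma voom called at -0.89 (adjusted p = 0.00791). Without old sedentary library 3 it was called in edgeR at -1.19 (edgeR adjusted p = 6.06e-06). With training states pooled, none of the 5 genes separated old from young libraries, and 0.399% of all genes did.

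The interaction, which is the training difference in old rats minus that in young rats, tested whether the training values depended on age. It was 0.94 for Slc17a7 (SE 0.55), -1.31 for Slc17a6 (SE 0.71), -0.63 for Gad1 (SE 0.21), -0.50 for Gad2 (SE 0.22) and -0.53 for Slc32a1 (SE 0.31). None of the 5 passed in edgeR (adjusted p from 0.281 to 0.467), where 0 of all genes did, nor did any pass in limma voom or the DESeq2 Wald test. At an unadjusted p below 0.05, Gad1 and Gad2 passed in edgeR, against 13.5% of all genes. Without old sedentary library 3 the edgeR test called Slc17a7, Gad1 and Gad2 (1.78, -0.77 and -0.65, edgeR adjusted p = 0.000849, 0.0159 and 0.0371). Over the fits with 1 library left out, the interaction called 0 to 582 of all genes.

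**Figure D5:**
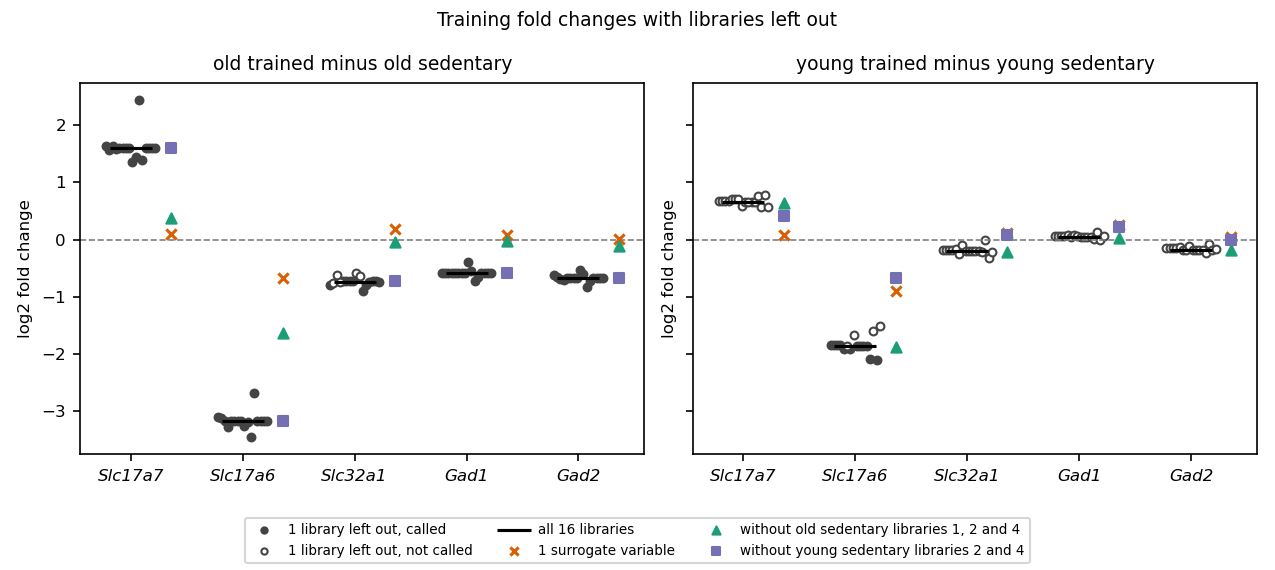
Log2 fold changes for training in old rats (left) and young rats (right) with each of the 16 libraries left out in turn (circles, filled where called), from all 16 libraries (black line), with 1 surrogate variable (cross), without old sedentary libraries 1, 2 and 4 (triangle) and without young sedentary libraries 2 and 4 (square). In old rats Slc17a7 stays between 1.36 and 2.44 and Slc17a6 between -3.45 and -2.68 with 1 library left out, and both lie nearer 0 at the cross and the triangle.

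The fit was also made with 1 surrogate variable, a term for variation between libraries beyond the groups. With it the training value in old rats was 0.09 for Slc17a7 and -0.67 for Slc17a6, and in young rats 0.07 and -0.90. None of the 5 genes was then called for training in edgeR. Such a variable can overlap the groups, and its part in these values was not tested.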

How the data were processed

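Hippocampal poly(A) RNA of 16 rats was sequenced on an Illumina HiSeq 2500 from NEBNext libraries, per the labels' protocols. The deposited values are raw counts per Ensembl gene ID, whole numbers with no normalization by the authors. Per the submitters' processing notes, TopHat2 2.1.1 and HTSeq were among the tools, with FastQC, Trimmomatic, SAMtools and DESeq2, and Rnor_6.0 was the build. No strand setting is stated, so reads from overlapping or antisense genes cannot be told apart. The 5 genes and the lists were chosen with earlier results of these data known. The gene table in the reference (GRCr8) matched 0 IDs, so 15 marker lists were not tested.

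Counts were analysed in edgeR 4.0.16 (R 4.3.3): filterByExpr by group, TMM, 1 mean per group over 16 libraries, glmQLFit (robust, 12 residual degrees of freedom), glmQLFTest, 2-sided. The standard error was the log2 fold change divided by the square root of F, and intervals used the moderated degrees of freedom. The fit was checked on simulated counts. Ratios used CPM without a pseudocount, log2 CPM a prior count of 2. Correlations were tested by exact permutation, 2-sided. No pair of libraries within a group agreed within sampling noise, and replicates are separate rats per the labels. The rule for named genes was all 5 genes and, since IDs have no symbols, the nearest pattern of Slc17a7 and Slc17a6. Alternatives were DESeq2 1.42.0 size factors and Wald test, voom (limma 3.58.1) weighted by sample quality, fitting all genes unfiltered, at least 1 CPM in 8 libraries, a replicate block, 1 surrogate variable (sva 3.50.0), only the libraries compared, leaving out each library, and 2 library sets left out after the data were seen.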

Additional observations from a re-analysis of the deposited data

Results flagged for a closer look

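Of 36 sets of 4 libraries examined (the 5 genes and 4 ratios in each group), 4 had a library far from the rest by Dixon's criterion for 4 values. Chance marks about 5% of independent sets, or 1.8 of 36, and these sets share libraries and genes.

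Old sedentary library 3 stood apart for Slc17a7, at 1324 CPM against 263 to 371 CPM in the other old sedentary libraries, and for Slc17a7 per summed Gad1 and Gad2, at 3.42 against 0.347 to 0.632. Its total of 10789527 counts lay between those of the other old sedentary libraries. Young trained library 4 stood apart for Slc17a7, at 2451 CPM against 1973 to 2027 CPM, and for Slc17a6 per Slc17a7, at 0.00438 against 0.00931 to 0.0102. It was the lowest library on the first principal component, at -39.8. No interaction of age and training passed for the 5 genes in edgeR at an adjusted p below 0.05; at an unadjusted p below 0.05 Gad1 and Gad2 did.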

How the results depend on the processing

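The counts of the 5 genes called in edgeR with all libraries (4 for training averaged over age, 1 in young and 5 in old rats, 0 for age and the interaction) were 0, 0 and 0 for training with 1 surrogate variable. Without old sedentary libraries 1, 2 and 4 they were 2, 2 and 0. Without young sedentary libraries 2 and 4 they were 2 averaged over age and 0 in young rats, with 1 for age in sedentary rats. limma voom gave 5 for training averaged over age, 2 in young rats, and 1 for age both averaged over training and in sedentary rats, and the DESeq2 Wald test gave 5 for training averaged over age. Without a filter the training counts were 3 averaged over age, 0 in young and 4 in old rats, Slc32a1 being lost in old rats (-0.73, edgeR adjusted p = 0.0593). With only the libraries compared they were 2 in young and 3 in old rats, with 1 for age in trained rats. Leaving out 1 library gave 3 to 5 averaged over age, 0 to 2 in young rats, 4 to 5 in old rats, 0 to 1 for age averaged over training, 0 to 4 for age in sedentary rats, 0 for age in trained rats and 0 to 3 for the interaction.

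The labels number biological replicates and name nothing that equal numbers share. Deviations of same-numbered libraries from their group means had correlations from -0.245 to 0.477 over the pairs of groups, not all above the 0.1 required to treat the numbers as pairs, so the block is given only here. Library 3 had the lowest Slc32a1 of its group in all 4 groups, and the block gave Slc32a1 an edgeR adjusted p of 0.00104 for training averaged over age (SE 0.0819, against 0.156 without it) and 0.00101 in old rats. With a replicate block the counts were 4, 1 and 5 for training and 1 each for age averaged over training and in sedentary rats (Slc17a7, -0.86 and -1.42).

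With 1 surrogate variable signs turned for Slc32a1, Gad1 and Gad2 in training averaged over age (0.14, 0.17 and 0.028) and in old rats (0.18, 0.085 and 0.0075), for Slc32a1 and Gad2 in young rats (0.11 and 0.048), for Slc17a6, Slc32a1, Gad1 and Gad2 in age averaged over training (-0.17, -0.20, -0.071 and -0.079), for Slc17a6, Slc32a1 and Gad2 in age in sedentary rats (-0.29, -0.23 and -0.059), and for Slc17a6 and Slc32a1 in the interaction (0.22 and 0.072). Without old sedentary libraries 1, 2 and 4 they turned for Gad1 in training averaged over age (2.43e-05), for Slc17a6, Slc32a1, Gad1 and Gad2 in age averaged over training (-0.24, -0.26, -0.14 and -0.15) and in sedentary rats (-0.36, -0.34, -0.11 and -0.19), and for Slc17a7, Slc17a6, Slc32a1 and Gad2 in the interaction (-0.26, 0.23, 0.16 and 0.081). Without young sedentary libraries 2 and 4 Slc32a1 turned for training in young rats (0.082). The cause was not tested. With 1 library left out, Gad1 in young rats ran from -0.0068 to 0.14, Slc32a1 in age averaged over training from -0.0027 to 0.16, the mean log2 of Slc17a7 over summed Gad1 and Gad2 in old sedentary rats from -0.99 to 0.11, and that of Gad1 over Gad2 in young sedentary rats from -0.0044 to 0.0703. With DESeq2 size factors the correlation of Slc17a7 and Gad1 in trained libraries, not reported as a relation because the ages do not overlap for either gene, was 0.78 (exact permutation adjusted p = 0.0468) against 0.76 (adjusted p = 0.0566).

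Over all genes, training averaged over age called 5100 genes, 227 with 1 surrogate variable, 1866 without old sedentary libraries 1, 2 and 4 and 3330 without young sedentary libraries 2 and 4. In young rats it called 2572, 4393 with limma voom, 1602 with 1 surrogate variable, 525 without young sedentary libraries 2 and 4, and 1289 to 2992 on leaving out 1 library. In old rats it called 3618, 2345 with only the libraries compared, 3 with 1 surrogate variable and 0 without old sedentary libraries 1, 2 and 4. Age averaged over training called 1585, 492 with 1 surrogate variable, 114 without old sedentary libraries 1, 2 and 4, and 950 to 2452 on leaving out 1 library. Age in sedentary rats called 227, 457 with limma voom, 909 by DESeq2, 560 with a replicate block, 8 with 1 surrogate variable, 24 with only the libraries compared, 3 and 492 without the old and the young sedentary sets, and 38 to 2007 on leaving out 1 library. Age in trained rats called 748, 1348 with limma voom, 1244 by DESeq2, 1202 with 1 surrogate variable, 1215 and 476 without the old and the young sedentary sets, and 237 to 1049 on leaving out 1 library. The interaction called 0, 44 with the DESeq2 Wald test, and 0 to 582 on leaving out 1 library. Depth limits Slc17a6 most: counting alone gives a spread of 9.41% at its lowest count.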
